A study of Mus musculus with 4 samples.

Results

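The 9 genes described here, from families that move or bind zinc, were followed across hippocampal nuclei of 4 mouse genotypes. They were Slc30a1, Slc30a3, Slc30a4 and Slc30a10 of the zinc exporter family, the zinc importers Slc39a10 and Slc39a12, and the metallothioneins Mt1, Mt2 and Mt3. All 9 symbols were found among the 27998 gene rows of the deposited files, each in 1 row. The genes were chosen from a list drawn up with earlier results of these nuclei known, on Slc30a3 levels in CA1 and dentate neurons and on metallothionein levels in glia, so the values in those nuclei are given as descriptions. Nuclei of frozen hippocampi from B6 mice aged 9 months were pooled by genotype and read with a droplet 3′ kit, which counts each RNA molecule as a unique molecular identifier (UMI). The groups were P301S/EKO (7 hippocampi pooled), EKO (7), P301S (8) and WT (7). EKO marks loss of Apoe, the gene of the lipid carrier apolipoprotein E, and P301S marks a human tau transgene with that amino acid change, whose promoter the labels do not name. The study's title concerns the LDL receptor and apoE in tau-related neurodegeneration. Each genotype was 1 library, so every difference below is between 2 pools, has no replicate check and carries no test between genotypes.

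The libraries kept 5274 nuclei in P301S/EKO, 5199 in EKO, 2860 in P301S and 5234 in WT after filtering, with 7458827 to 11987711 UMIs a library and a median of 1421 UMIs per nucleus in P301S/EKO, 1444 in EKO, 2142 in P301S and 1899.5 in WT. Barcodes above 5% mitochondrial UMIs made up 17.6% in P301S/EKO, 8.71% in EKO, 7.03% in P301S and 10.4% in WT. Pairs of libraries shared 19 to 69 barcodes. Apoe stood at 19.6 CPM (counts scaled to 1000000 UMIs) in P301S/EKO, 16.4 in EKO, 6402 in P301S and 1932 in WT over all nuclei, so both libraries labelled EKO were low in it. Nuclei were grouped into classes by marker genes, and a class is written "astrocyte-like" and so on because its name was rebuilt from markers. Intervals are 95% and cover counting error only.

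Zinc in the brain is held in a small free pool, in a pool bound to proteins and in the synaptic vesicles of some glutamatergic neurons, among them the mossy fibre axons of dentate granule neurons. ZnT proteins of the Slc30 family lower zinc in the cytoplasm by moving it out of the cell or into vesicles, and ZIP proteins of the Slc39 family bring it in. Metallothioneins bind zinc and copper through cysteines. Of their genes, Mt1 and Mt2 are turned on by zinc through the sensor MTF1, which binds metal response elements. Glucocorticoids and inflammatory signals also turn on Mt1 and Mt2.

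The promoters of Mt1, Mt2, Mt3 and Slc30a1 are shown because metal response elements are known from the metallothionein and Slc30a1 promoters and because the 3 metallothioneins differed together between libraries. Each sequence is the 250 bases before the RefSeq start on GRCm38.p6, all on the plus strand. Capitals mark the metal response element cores TGCACNC and TGCGCNC, read on either strand.
Mt1, chr8:94178839-94179088: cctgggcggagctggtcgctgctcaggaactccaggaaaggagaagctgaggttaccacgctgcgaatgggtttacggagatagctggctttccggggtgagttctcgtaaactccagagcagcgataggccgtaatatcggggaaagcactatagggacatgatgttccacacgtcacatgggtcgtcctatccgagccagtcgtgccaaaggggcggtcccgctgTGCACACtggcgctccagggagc
Mt2, chr8:94172368-94172617: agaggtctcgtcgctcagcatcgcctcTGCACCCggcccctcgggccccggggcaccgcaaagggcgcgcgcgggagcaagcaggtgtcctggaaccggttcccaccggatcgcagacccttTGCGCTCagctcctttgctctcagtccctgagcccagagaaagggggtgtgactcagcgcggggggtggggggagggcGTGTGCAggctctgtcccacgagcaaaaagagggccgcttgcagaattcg
Mt3, chr8:94152357-94152606: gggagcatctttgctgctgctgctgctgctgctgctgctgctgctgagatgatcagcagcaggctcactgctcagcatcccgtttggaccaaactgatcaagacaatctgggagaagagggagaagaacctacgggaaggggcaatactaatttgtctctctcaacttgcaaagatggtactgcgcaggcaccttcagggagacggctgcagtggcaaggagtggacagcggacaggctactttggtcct
Slc30a1, chr1:191906531-191906780: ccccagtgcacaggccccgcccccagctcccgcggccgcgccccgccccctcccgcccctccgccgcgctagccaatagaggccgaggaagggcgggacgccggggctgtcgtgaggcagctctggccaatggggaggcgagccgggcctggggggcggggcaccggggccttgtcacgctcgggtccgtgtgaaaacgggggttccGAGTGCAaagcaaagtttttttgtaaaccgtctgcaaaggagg
The search found 1 core for Mt1, 3 for Mt2, 0 for Mt3 and 1 for Slc30a1. Of 32851 promoters of the same length in the RefSeq table, 21.4% held at least 1 core and 1.26% at least 3. Widened to 300 bases, with the first 50 after the start, the windows held 3 cores for Mt1, 4 for Mt2, 1 for Mt3 and 2 for Slc30a1. As many cores were held by 1.97%, 0.517%, 25.7% and 7.11% of all 300-base windows, in that order of genes. All 9 genes matched the table. The windows of the other members are described without their letters. Slc30a10 held 3 cores in 250 bases, of which 2 overlapped on opposite strands. Slc30a4 held 2 cores, Slc30a3 held 1 in 1 of its 2 promoters, and Slc39a12 and both Slc39a10 promoters held 0.

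In most classes the metallothionein RNA counted in droplets was higher in both libraries with the tau transgene than in their partners without it. The zinc transporters gave few differences, most of them in Slc30a3. A gene was called in a class when its levels in 2 libraries stood at least 1.5-fold apart, the counting interval of the ratio lay on 1 side of 1, and the 2 libraries held at least 20 UMIs. Between P301S/EKO and EKO, 30 of 35 measured pairs of a metallothionein and a class were called higher and 0 lower, where 3.86% of all measured gene and class pairs were called higher and 2.78% lower. Between P301S and WT, 29 of 33 were called higher and 0 lower, where 8.01% of all pairs were called higher and 3.3% lower. These 2 comparisons share no library. Between P301S/EKO and P301S, 0 of 33 were called higher and 10 lower, beside 2.76% and 7.34% of all pairs. Between EKO and WT, 0 of 34 were called higher and 13 lower, beside 3.7% and 3.94% of all pairs. The zinc transporters gave 1 higher and 1 lower call of 36 between P301S/EKO and EKO, 2 higher and 7 lower of 39 between P301S and WT, 4 higher and 0 lower of 33 between P301S/EKO and P301S, and 2 higher and 1 lower of 38 between EKO and WT. Slc30a3 gave 6 of the 7 lower calls between P301S and WT and all 4 higher calls between P301S/EKO and P301S. Those 4 were in CA1 neuron-like, oligodendrocyte-like and microglia-like nuclei and in the unnamed cluster led by Dcn and Col6a1. The counts describe genes chosen with these values known and are no support for the choice. The metallothionein pairs repeat the same genes over classes of the same pools. Part of the counts in each class was taken as free RNA, as described below, so the pairs are not separate observations. They include oligodendrocyte-like and microglia-like nuclei, where 80.4% to 90% of UMIs were taken as free RNA and no Mt1 remained after subtraction.

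**Figure D1:**
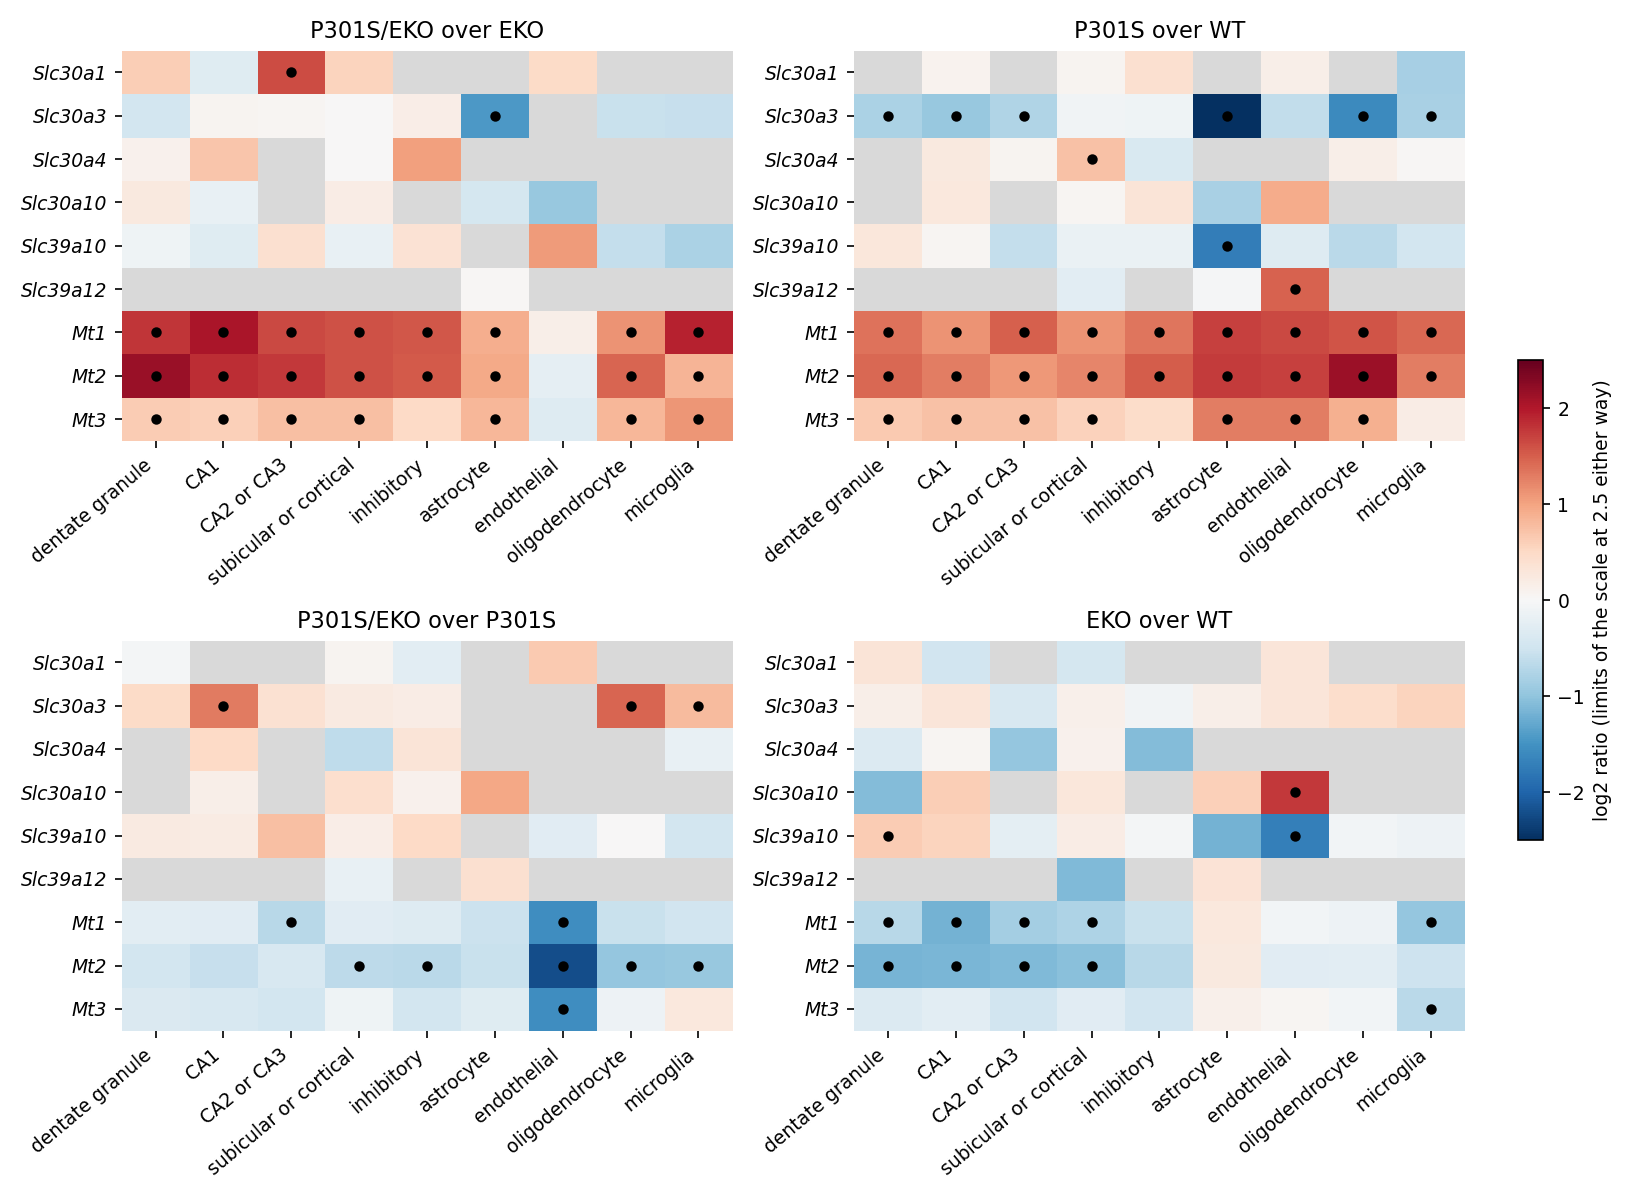
Log2 ratio of CPM for the 9 genes (rows) by class (columns) in the 4 comparisons, with the sign taken as first library over second and marked pairs passing the 1.5-fold rule. The oligodendrocyte precursor-like class and the unnamed clusters are not drawn. The metallothionein rows are positive in most classes for P301S/EKO over EKO and for P301S over WT, and the negative values for Slc30a3 gather in P301S over WT.

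Slc30a3 (ENSMUSG00000029151, chr5:31086106-31108237, minus strand, GRCm38) encodes ZnT3, which loads zinc into synaptic vesicles. Its span overlaps Dnajc5g and Gm9924 on the other strand, and Mt2 overlaps Gm45774, so reads assigned without regard to strand could not be told apart; the counting of strand is not given in the sources used here. It had its highest mean level in dentate granule neuron-like nuclei, 170.1 ± 46.0 CPM over the 4 libraries (SD, n = 4). The next means were 86.1 CPM in microglia-like and 84.5 CPM in oligodendrocyte-like nuclei, above 75.5 CPM in CA1 neuron-like nuclei. The dentate and microglia-like ranges overlapped. In dentate granule neuron-like nuclei Slc30a3 stood at 157 CPM in P301S/EKO (181 UMIs), 216 in EKO (365 UMIs), 112 in P301S (33 UMIs) and 196 in WT (207 UMIs). The P301S library was lowest and also held the fewest such nuclei, 157 against 663 in WT. The level in P301S was 1.75-fold lower than in WT (interval 1.21 to 2.61), and the level in P301S/EKO was 1.38-fold lower than in EKO (interval 1.15 to 1.66), short of the 1.5-fold rule. The summed level of the 7 dentate markers in this class was also lowest in P301S and highest in EKO, at 1743 CPM in P301S/EKO, 1973 in EKO, 1057 in P301S and 1596 in WT, and its part in the Slc30a3 differences was not tested.

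In CA1 neuron-like nuclei Slc30a3 stood at 96.1 CPM in P301S/EKO (122 UMIs), 92.2 in EKO (114 UMIs), 38.6 in P301S (29 UMIs) and 75.0 in WT (144 UMIs). The P301S library was low, and neither P301S/EKO and EKO nor EKO and WT differed beyond counting error. P301S was 1.94-fold lower than WT (interval 1.29 to 3.00), and P301S/EKO was 2.49-fold higher than P301S (interval 1.65 to 3.87). P301S/EKO and EKO differed by 1.04-fold (interval 0.8 to 1.36). The CA1 class joins 2 clusters. In the large one, led by Fibcd1 and Man1a, Slc30a3 stood at 98.2 CPM in P301S/EKO, 94.1 in EKO, 27.0 in P301S and 74.7 in WT. In the small one, led by the activity-dependent genes Fos and Npas4, it rested on 4 to 10 UMIs and stood at 59.1 CPM in P301S/EKO, 67.8 in EKO, 219 in P301S and 85.4 in WT. Without the small cluster, P301S was 2.77-fold lower than WT and P301S/EKO was 3.64-fold higher than P301S. The dentate markers summed to 70.9 CPM in P301S/EKO, 142 in EKO, 58.6 in P301S and 111 in WT within the CA1 class, lowest in P301S like Slc30a3 but otherwise in another order.

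**Figure D2:**
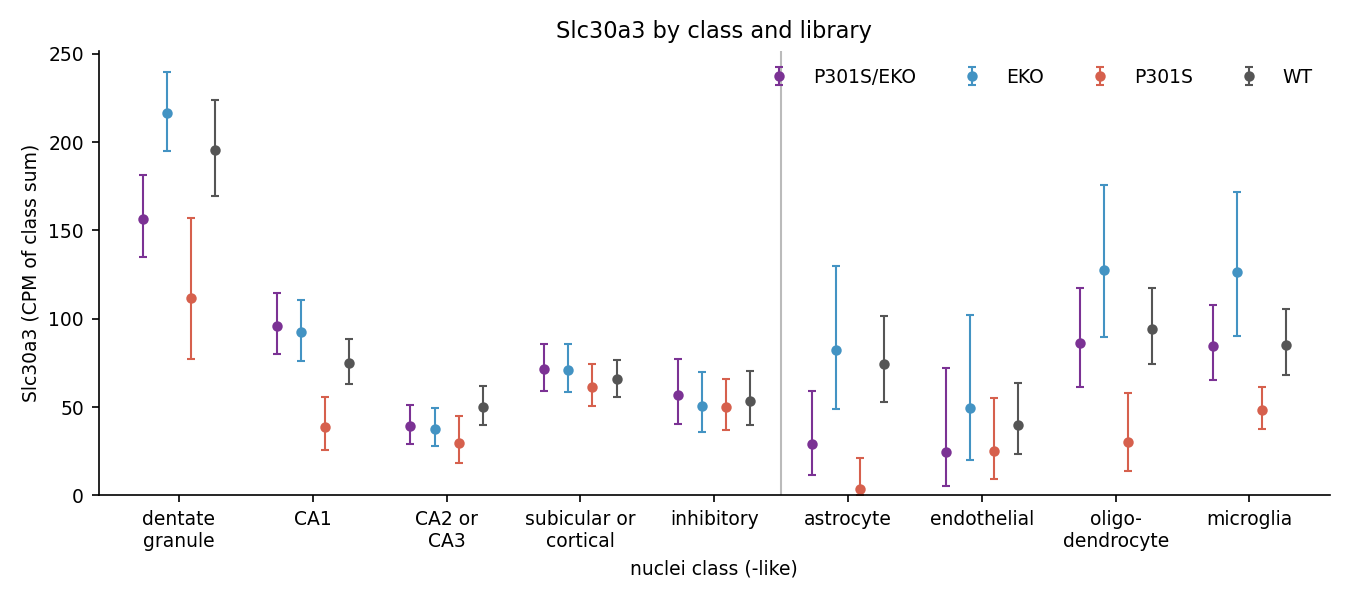
Slc30a3 level in CPM by class and library, with points for the 4 libraries and bars for 95% counting intervals. In CA1 neuron-like nuclei the P301S point lies at 38.6 CPM, below 96.1 in P301S/EKO, 92.2 in EKO and 75.0 in WT; dentate granule neuron-like nuclei hold the highest mean.

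Among the other neurons the levels of Slc30a3 were closer together. In CA2 or CA3 neuron-like nuclei they were 39.0 CPM in P301S/EKO (51 UMIs), 37.8 in EKO (51 UMIs) and 29.6 in P301S (22 UMIs), and the WT interval was 39.8 to 62.0 CPM (83 UMIs), with P301S 1.69-fold lower than WT (interval 1.05 to 2.84). In subicular or cortical excitatory neuron-like nuclei they were 71.5 CPM in P301S/EKO, 71.1 in EKO, 61.5 in P301S and 65.6 in WT, and in inhibitory neuron-like nuclei 56.6, 50.7, 49.9 and 53.5 CPM in the same libraries. None of the 4 comparisons in these last 2 classes passed counting error. Within them the clusters were unlike. The cluster led by Vwc2l and Cux2, markers of upper cortical layers, held 97.1 CPM in P301S/EKO, 108 in EKO, 90.6 in P301S and 91.0 in WT, and the cluster led by Nts and Fn1, known from the subiculum, held 16.0, 31.3, 16.7 and 22.6 CPM. The Sst cluster held 72.7 CPM in P301S/EKO, 64.3 in EKO, 68.0 in P301S and 59.8 in WT, and the Vip cluster 10.8, 14.6, 9.50 and 35.6 CPM.

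Slc30a3 was also counted in glial classes, which are not known to use ZnT3. The microglia-like class also held oligodendrocyte markers, summing to 5241 CPM in P301S/EKO, 5486 in EKO, 4615 in P301S and 3751 in WT, beside 6106, 5782, 4962 and 2911 CPM of its own markers, so in WT they were above its own. In microglia-like nuclei Slc30a3 stood at 84.5 CPM in P301S/EKO, 126 in EKO, 48.3 in P301S and 85.2 in WT, and in oligodendrocyte-like nuclei at 86.0, 128, 30.4 and 94.2 CPM. In astrocyte-like nuclei it stood at 28.8 CPM in P301S/EKO (7 UMIs), 82.1 in EKO (18 UMIs), 3.79 in P301S (1 UMI) and 74.1 in WT (39 UMIs). The P301S library was lowest in each of these classes, as it was over all nuclei, where Slc30a3 stood at 77.9 CPM in P301S/EKO, 94.8 in EKO, 46.1 in P301S and 76.9 in WT. P301S was lower than WT by 1.76-fold in microglia-like (interval 1.26 to 2.47), 3.10-fold in oligodendrocyte-like (1.55 to 7.03) and 19.6-fold in astrocyte-like nuclei (3.31 to 792). In the microglia-like class the dentate markers summed to 704 CPM in P301S/EKO, 874 in EKO, 409 in P301S and 607 in WT, highest in EKO and lowest in P301S, as Slc30a3 was. In the astrocyte-like class they summed to 239 CPM in P301S/EKO, 324 in EKO, 193 in P301S and 344 in WT. Nuclei were called mixed when neuronal transcripts took more than 50% of their typical share in CA1 nuclei, and these made up 54.4% of the microglia-like class in P301S/EKO, 45.3% in EKO, 63.4% in P301S and 77.3% in WT. With these mixed nuclei left out, Slc30a3 in microglia-like nuclei stood at 77.9 CPM in P301S/EKO, 137 in EKO, 35.4 in P301S and 97.7 in WT, each from 11 to 19 UMIs. With free RNA subtracted, as described below, it stood at 105 CPM in P301S/EKO, 234 in EKO, 58.4 in P301S and 121 in WT, where the share of UMIs taken as free RNA was 86.9% in P301S/EKO, 90% in EKO, 80.4% in P301S and 90% in WT. The estimate was limited to 90%, which EKO and WT reached, so the subtraction may be incomplete there. Over all classes, the 9 neuronal transcripts followed here gave 2 higher and 19 lower calls of 97 between P301S and WT, where 3.3% of all pairs were called lower. The 19 were in glial and endothelial classes, 8 of 9 in astrocyte-like, 7 of 9 in endothelial cell-like, 3 of 9 in microglia-like and 1 of 9 in oligodendrocyte-like nuclei, and neuron-like classes gave 0. Their part in the glial Slc30a3 was not tested.

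Shares of nuclei with a Slc30a3 UMI were compared after each nucleus was thinned to 500 UMIs. No nucleus was too shallow for this, so 0 were left out. In dentate granule neuron-like nuclei the share was 7.61% in P301S/EKO, 9.87% in EKO, 4.46% in P301S and 9.05% in WT (unthinned 16.2%, 22.9%, 19.8% and 25.8%). In astrocyte-like nuclei, which should lack the gene, it was 0.995% in P301S/EKO, 3.48% in EKO, 0.826% in P301S and 3.50% in WT (unthinned 3.48%, 8.46%, 0.826% and 10.5%). In microglia-like nuclei it was 3.85% in P301S/EKO, 6.47% in EKO, 1.89% in P301S and 3.38% in WT, close to the 4.05%, 5.31%, 2.58% and 3.77% of CA1 neuron-like nuclei. The CA1 share was above the microglia-like share in 3 libraries and below it in EKO, with overlapping intervals in each, so the CA1 share is not told from background by this measure. The dentate share was above the astrocyte-like and the microglia-like share in each library, but its interval overlapped the microglia-like interval in P301S/EKO, EKO and P301S. Median depth was 1115 UMIs in P301S/EKO, 1169 in EKO, 1791 in P301S and 1423 in WT for dentate nuclei, and 986, 820, 1676 and 1491 UMIs for astrocyte-like nuclei. It was 1770.5, 1665, 2663 and 2104.5 UMIs for CA1 nuclei and 1796, 1871, 3228 and 3913 UMIs for microglia-like nuclei, in the same order of libraries.

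Mt1 (chr8:94179082-94180327) and Mt2 (chr8:94172664-94173568), on the plus strand of GRCm38, encode the widespread metallothioneins, and astrocyte-like nuclei had the highest mean of both. The mean of Mt1 was 3249 ± 1767 CPM there and 1272 ± 880 CPM in endothelial cell-like nuclei, the next class (SD, n = 4 libraries each), and the ranges overlapped. In those nuclei Mt1 stood at 3799 CPM in P301S/EKO, 2020 in EKO, 5502 in P301S and 1676 in WT. Mt2 stood at 2874 CPM in P301S/EKO, 1500 in EKO, 4217 in P301S and 1258 in WT. Both genes ran in the same order over the libraries, with P301S highest and P301S/EKO next. The P301S level exceeded the WT level by 3.28-fold for Mt1 (interval 3.02 to 3.57) and 3.35-fold for Mt2 (3.04 to 3.70). P301S/EKO was higher than EKO by 1.88-fold for Mt1 (1.68 to 2.11) and 1.92-fold for Mt2 (1.68 to 2.19). P301S/EKO was lower than P301S by 1.45-fold for Mt1 (1.33 to 1.57) and 1.47-fold for Mt2 (1.33 to 1.61), just short of the 1.5-fold rule. EKO and WT differed by 1.21-fold for Mt1 and 1.19-fold for Mt2, and that sign turned when free RNA was subtracted or mixed nuclei were left out.

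Mt3 (chr8:94152607-94154146) encodes the metallothionein known as growth inhibitory factor, which is most abundant in the brain. In astrocyte-like nuclei it stood at 1229 CPM in P301S/EKO, 688 in EKO, 1517 in P301S and 629 in WT. The order was that of Mt1 and Mt2, with narrower folds: P301S was 2.41-fold higher than WT (2.08 to 2.80) and P301S/EKO 1.79-fold higher than EKO (1.46 to 2.19). P301S/EKO was 1.23-fold lower than P301S (1.06 to 1.44). Of all metallothionein UMIs in astrocyte-like nuclei, Mt3 gave 15.6% in P301S/EKO, 16.4% in EKO, 13.5% in P301S and 17.6% in WT, so its part was lowest in P301S and highest in WT. The nearby Mt4, known from skin, had 0 to 2 UMIs a library.

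**Figure D3:**
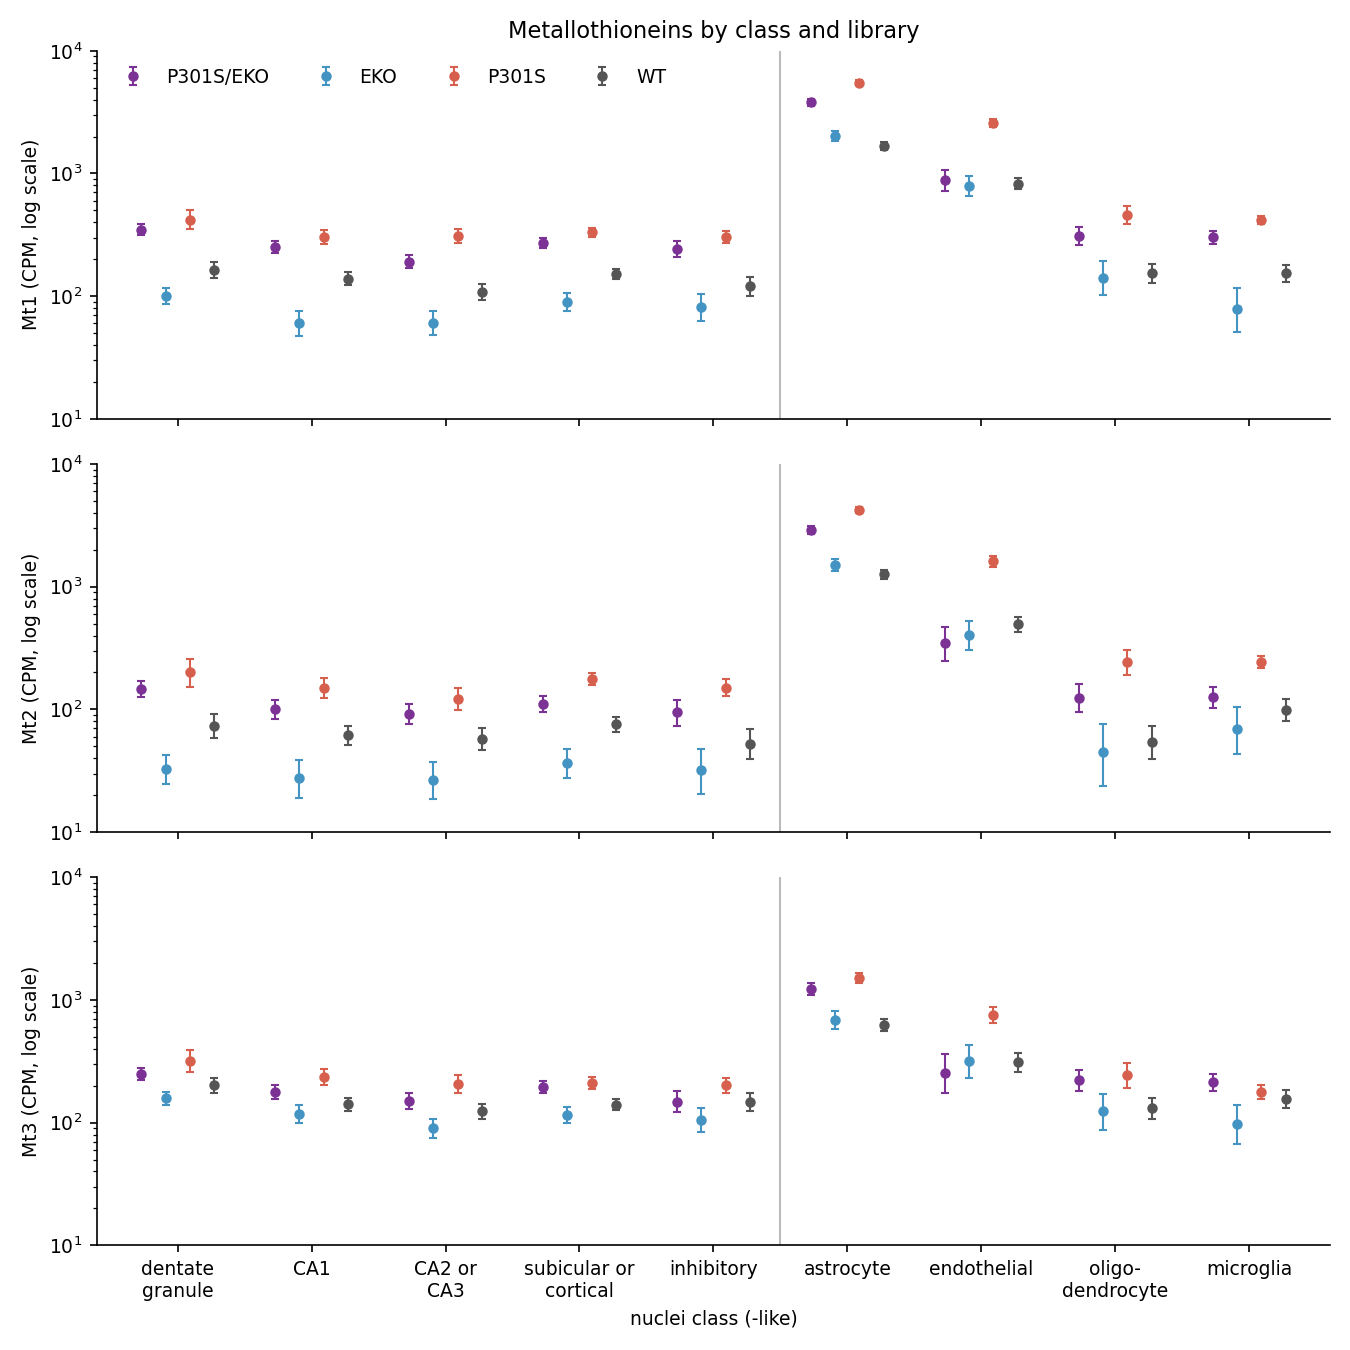
Mt1, Mt2 and Mt3 levels in CPM on a log axis by class and library, with 95% counting intervals. In astrocyte-like nuclei Mt1 lies at 3799 CPM in P301S/EKO, 2020 in EKO, 5502 in P301S and 1676 in WT, and in most classes both libraries with the tau transgene lie above those without it.

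The astrocyte-like class was split by whether a nucleus held a Gfap UMI, Gfap being the filament gene that rises in reactive astrocytes. With Gfap, Mt1 stood at 5130 CPM in P301S/EKO (85 nuclei), 3580 in EKO (42), 6715 in P301S (86) and 3337 in WT (43). Without Gfap it stood at 2476 CPM in P301S/EKO (116 nuclei), 1515 in EKO (159), 2551 in P301S (35) and 1386 in WT (243). Mt1 was higher in the nuclei with Gfap in all 4 libraries, and within each Gfap group both libraries with the tau transgene were above the other 2. Gfap was read after each nucleus was thinned to 500 UMIs, and the Mt1 levels come from all UMIs of those nuclei. Any further part of depth was not tested. After thinning to 500 UMIs, the share of astrocyte-like nuclei with a Mt1 UMI was 71.6% in P301S/EKO, 59.2% in EKO, 82.6% in P301S and 51.4% in WT (unthinned 86.1%, 75.1%, 96.7% and 78.3%).

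Other transcripts in the astrocyte-like class differed between libraries too. The 8 astrocyte markers summed to 18280 CPM in P301S/EKO, 16140 in EKO, 16290 in P301S and 10590 in WT, and 9 neuronal transcripts to 5456 CPM in P301S/EKO, 6305 in EKO, 6067 in P301S and 13420 in WT. The WT nuclei held the highest neuronal level. The 6 choroid plexus markers, which include the abundant Ttr, summed to 1460 CPM in P301S/EKO, 128 in EKO, 1593 in P301S and 528 in WT, and the 8 microglia markers to 358 CPM in P301S/EKO, 246 in EKO, 535 in P301S and 253 in WT. Both sums were higher in the 2 libraries with the tau transgene, as the metallothioneins were, and their part in the metallothionein differences was not tested. Of the choroid plexus markers, Otx2 was at 0 in P301S/EKO and P301S, Ttr and Folr1 in EKO, and Kl, Folr1 and Otx2 in WT. Mixed nuclei, as defined above, made up 2.99% of the class in P301S/EKO, 1.49% in EKO, 8.26% in P301S and 18.5% in WT. With them left out, Mt1 stood at 3986 CPM in P301S/EKO, 2074 in EKO, 6102 in P301S and 2099 in WT.

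In endothelial cell-like nuclei the libraries stood otherwise. Mt1 stood at 880 CPM in P301S/EKO, 793 in EKO, 2591 in P301S and 824 in WT. Mt2 stood at 345 CPM in P301S/EKO, 403 in EKO, 1611 in P301S and 493 in WT, and Mt3 at 255, 319, 757 and 311 CPM in the same libraries. The P301S library was high for each gene, and the other 3 lay close together. P301S was higher than WT by 3.14-fold for Mt1 (2.75 to 3.59), 3.27-fold for Mt2 (2.76 to 3.89) and 2.44-fold for Mt3 (1.94 to 3.07). P301S/EKO was lower than P301S by 2.95-fold for Mt1 (2.40 to 3.65), 4.67-fold for Mt2 (3.39 to 6.58) and 2.97-fold for Mt3 (2.02 to 4.50). It differed from EKO by 1.11-fold for Mt1 (0.843 to 1.46). Endothelial cell-like nuclei were the only class in which all 3 metallothioneins were called lower in P301S/EKO than in P301S. The class held 89 nuclei in P301S/EKO, 101 in EKO, 107 in P301S and 155 in WT. Its own markers summed to 7990 CPM in P301S/EKO, 4395 in EKO, 7307 in P301S and 6827 in WT. Markers of other cells were counted in it as well: astrocyte markers summed to 4011 CPM in P301S/EKO, 5429 in EKO, 5043 in P301S and 3037 in WT, pericyte or smooth muscle markers to 2474, 2753, 2625 and 2325 CPM, and choroid plexus markers to 617 CPM in P301S/EKO, 340 in EKO, 1847 in P301S and 600 in WT. Microglia markers summed to 362 CPM in P301S/EKO, 496 in EKO, 673 in P301S and 250 in WT, and the 9 neuronal transcripts to 9946 CPM in P301S/EKO, 11350.0 in EKO, 6137 in P301S and 14010.0 in WT. Like the metallothioneins, the choroid plexus and microglia markers were highest in P301S, and the neuronal transcripts were lowest there. In EKO the astrocyte markers were above the endothelial markers of the class. The part of all these transcripts was not tested.

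In neuron-like and microglia-like nuclei the metallothioneins were far below the astrocyte-like level of the same gene. In CA1 neuron-like nuclei Mt1 stood at 251 CPM in P301S/EKO, 60.7 in EKO, 305 in P301S and 139 in WT. P301S/EKO was 4.14-fold higher than EKO (3.21 to 5.40), P301S was 2.19-fold higher than WT (1.83 to 2.63), and EKO was 2.29-fold lower than WT (1.77 to 3.00). In dentate granule neuron-like nuclei it stood at 349 CPM in P301S/EKO, 101 in EKO, 420 in P301S and 163 in WT, and in microglia-like nuclei at 300.8, 78.9, 417 and 154 CPM. The order P301S, P301S/EKO, WT and EKO held in these 3 classes. In the CA1 class oligodendrocyte markers summed to 907 CPM in P301S/EKO, 356 in EKO, 833 in P301S and 589 in WT. Choroid plexus markers summed to 315, 96.3, 945 and 330 CPM, and microglia markers to 180, 98.7, 309 and 83.3 CPM. These sums were also higher with the tau transgene than in the partner library. Dentate and pericyte or smooth muscle markers were lower there, and endothelial markers only in P301S. The part of this RNA was not tested. The 13 lower calls between EKO and WT were in neuron-like, unnamed and microglia-like nuclei, with 0 in astrocyte-like and endothelial cell-like nuclei. Mt3 in microglia-like nuclei stood at 212 CPM in P301S/EKO, 97.8 in EKO, 177 in P301S and 156 in WT, and was 1 of the 4 metallothionein values not called between P301S and WT.

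An estimate of free RNA from markers of other classes was subtracted from each class. This left Mt1 at 5412 CPM in P301S/EKO, 3068 in EKO, 7924 in P301S and 3582 in WT in astrocyte-like nuclei, and at 74.8 CPM in P301S/EKO, 0 in EKO, 126 in P301S and 61.4 in WT in CA1 neuron-like nuclei. In astrocyte-like nuclei the share of UMIs taken as free RNA was 38.0% in P301S/EKO, 40.9% in EKO, 37.0% in P301S and 62.6% in WT. The Mt1 ratio of P301S to WT there fell below its interval given above, and that of P301S/EKO to EKO stayed within its own. The part of the unequal shares was not tested. The astrocyte-like values kept both libraries with the tau transgene above their partners, and the CA1 values dropped to 126 CPM or less. In oligodendrocyte-like and microglia-like nuclei 0 remained, with 80.4% to 90% of their UMIs taken as free RNA. Values of Mt1 in those classes are therefore given as RNA counted in the droplets and not as expression by the cells.

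The mixture of the 3 metallothioneins differed between classes. Mt3 gave 33.7% of metallothionein UMIs in CA1 neuron-like nuclei in P301S/EKO, 57.3% in EKO, 34.2% in P301S and 41.4% in WT, above its 13.5% to 17.6% in astrocyte-like nuclei in every library. Mt2 gave 18.9% in P301S/EKO, 13.3% in EKO, 21.6% in P301S and 18.0% in WT in the CA1 class, below its 35.3% to 37.5% in astrocyte-like nuclei. The endothelial cell-like mixture lay nearer to that of astrocyte-like nuclei, with Mt3 at 17.2% in P301S/EKO, 21.0% in EKO, 15.3% in P301S and 19.1% in WT. Barcodes above the mitochondrial limit, which were left out, held Mt3 at 30.5% in P301S/EKO, 36.7% in EKO, 23.6% in P301S and 34.9% in WT, between the astrocyte-like and CA1 mixtures in each library.

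**Figure D4:**
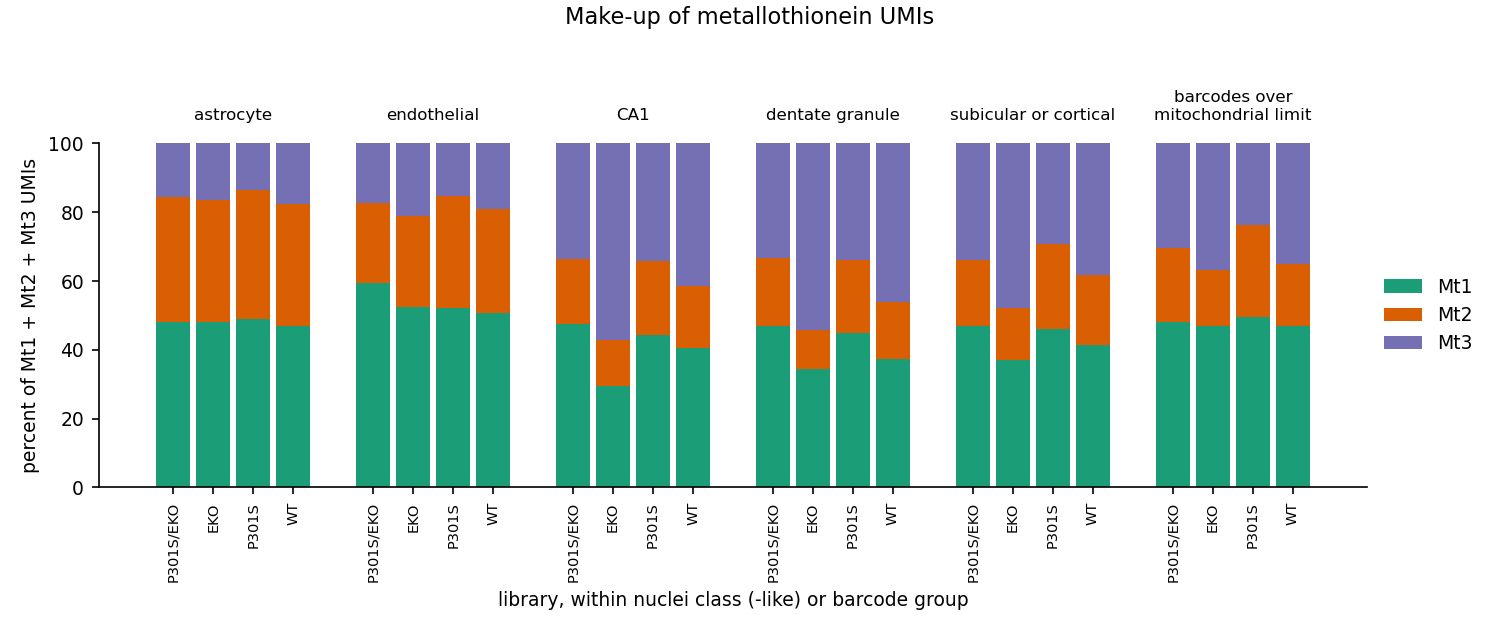
Share of metallothionein UMIs from Mt1, Mt2 and Mt3, in percent, by class and library. Mt3 takes 13.5% to 17.6% in astrocyte-like nuclei and 33.7% to 57.3% in CA1 neuron-like nuclei.

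Slc39a12 encodes the zinc importer ZIP12 and marked astrocyte-like nuclei. It stood there at 276 CPM in P301S/EKO (67 UMIs), 269 in EKO (59 UMIs), 209 in P301S (55 UMIs) and 213 in WT (112 UMIs), a mean of 242 ± 35.7 CPM (SD, n = 4). Among classes of at least 50 nuclei, its range did not overlap that of the next, endothelial cell-like nuclei, at 39.2 ± 23.6 CPM. The smaller choroid plexus epithelium-like class held 141 CPM in P301S/EKO, 61.9 in P301S and 72.0 in WT, from 2 to 5 UMIs. In astrocyte-like nuclei P301S and WT differed by 0.98-fold (interval 0.696 to 1.37), and P301S/EKO and EKO by 1.02-fold (0.711 to 1.48). The thinned share of astrocyte-like nuclei with a Slc39a12 UMI was 12.9% in P301S/EKO, 11.9% in EKO, 12.4% in P301S and 12.9% in WT, all within a narrow span in the nuclei whose Mt1 shares are given above. In endothelial cell-like nuclei it rested on 2 to 16 UMIs, with a ratio of P301S to WT of 2.88 (1.23 to 7.11). Astrocyte markers in that class summed to 5043 CPM in P301S and 3037 in WT, and their part was not tested.

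Slc30a10 encodes ZnT10, best known as a manganese exporter in humans and mice, and was counted above with the zinc transporters by family. Its mean over the libraries was highest in endothelial cell-like nuclei, at 49.3 CPM in P301S/EKO, 99.1 in EKO, 54.7 in P301S and 28.0 in WT, and next in astrocyte-like nuclei, at 53.4, 72.9, 26.5 and 47.5 CPM in the same libraries. The 2 classes overlapped in range, and astrocyte-like nuclei were the higher in P301S/EKO and WT. EKO was 3.54-fold higher than WT in endothelial cell-like nuclei (interval 1.52 to 8.37), from 14 and 12 UMIs. Astrocyte markers in that class summed to 5429 CPM in EKO and 3037 in WT, and their part was not tested.

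Slc30a1 encodes ZnT1, the zinc exporter of the plasma membrane, and stood apart in endothelial cell-like nuclei. It was at 140 CPM in P301S/EKO, 99.1 in EKO, 88.3 in P301S and 79.4 in WT there, a mean of 102 CPM, against a mean of 17.5 CPM in the next class, astrocyte-like nuclei, with no overlap of range. None of the 4 comparisons passed counting error in the endothelial cell-like class, where P301S and WT differed by 1.11-fold (interval 0.614 to 1.97) and P301S/EKO and P301S by 1.58-fold (0.784 to 3.15). Its 1 call was in CA2 or CA3 neuron-like nuclei, where P301S/EKO was 3.30-fold higher than EKO (1.16 to 11.5) from 16 and 5 UMIs. The difference between Slc30a1 and the metallothioneins Mt1 and Mt2, all known targets of MTF1, was not tested.

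Slc39a10 encodes the zinc importer ZIP10. Its levels in endothelial cell-like nuclei were 123 CPM in P301S/EKO, 56.6 in EKO, 151 in P301S and 189 in WT, with EKO 3.34-fold lower than WT (interval 1.62 to 8.00) from 8 and 81 UMIs. The endothelial markers of that class summed to 4395 CPM in EKO and 6827 in WT. The part of this unequal make-up was not tested. In subicular or cortical excitatory neuron-like nuclei it stood at 86.6 CPM in P301S/EKO, 98.1 in EKO, 77.2 in P301S and 86.0 in WT, with no pair beyond counting error. In dentate granule neuron-like nuclei EKO was 1.55-fold higher than WT (1.05 to 2.33), and in astrocyte-like nuclei P301S was 3.51-fold lower than WT (1.23 to 13.8) from 4 and 28 UMIs. Slc30a4 encodes ZnT4, a transporter of vesicle and lysosome membranes, and was low throughout, with class means of 29.6 CPM or less. Its 1 call was in subicular or cortical excitatory neuron-like nuclei, where it stood at 17.6 CPM in P301S/EKO, 17.6 in EKO, 27.3 in P301S and 16.4 in WT, 1.66-fold higher in P301S than in WT (1.07 to 2.59).

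**Figure D5:**
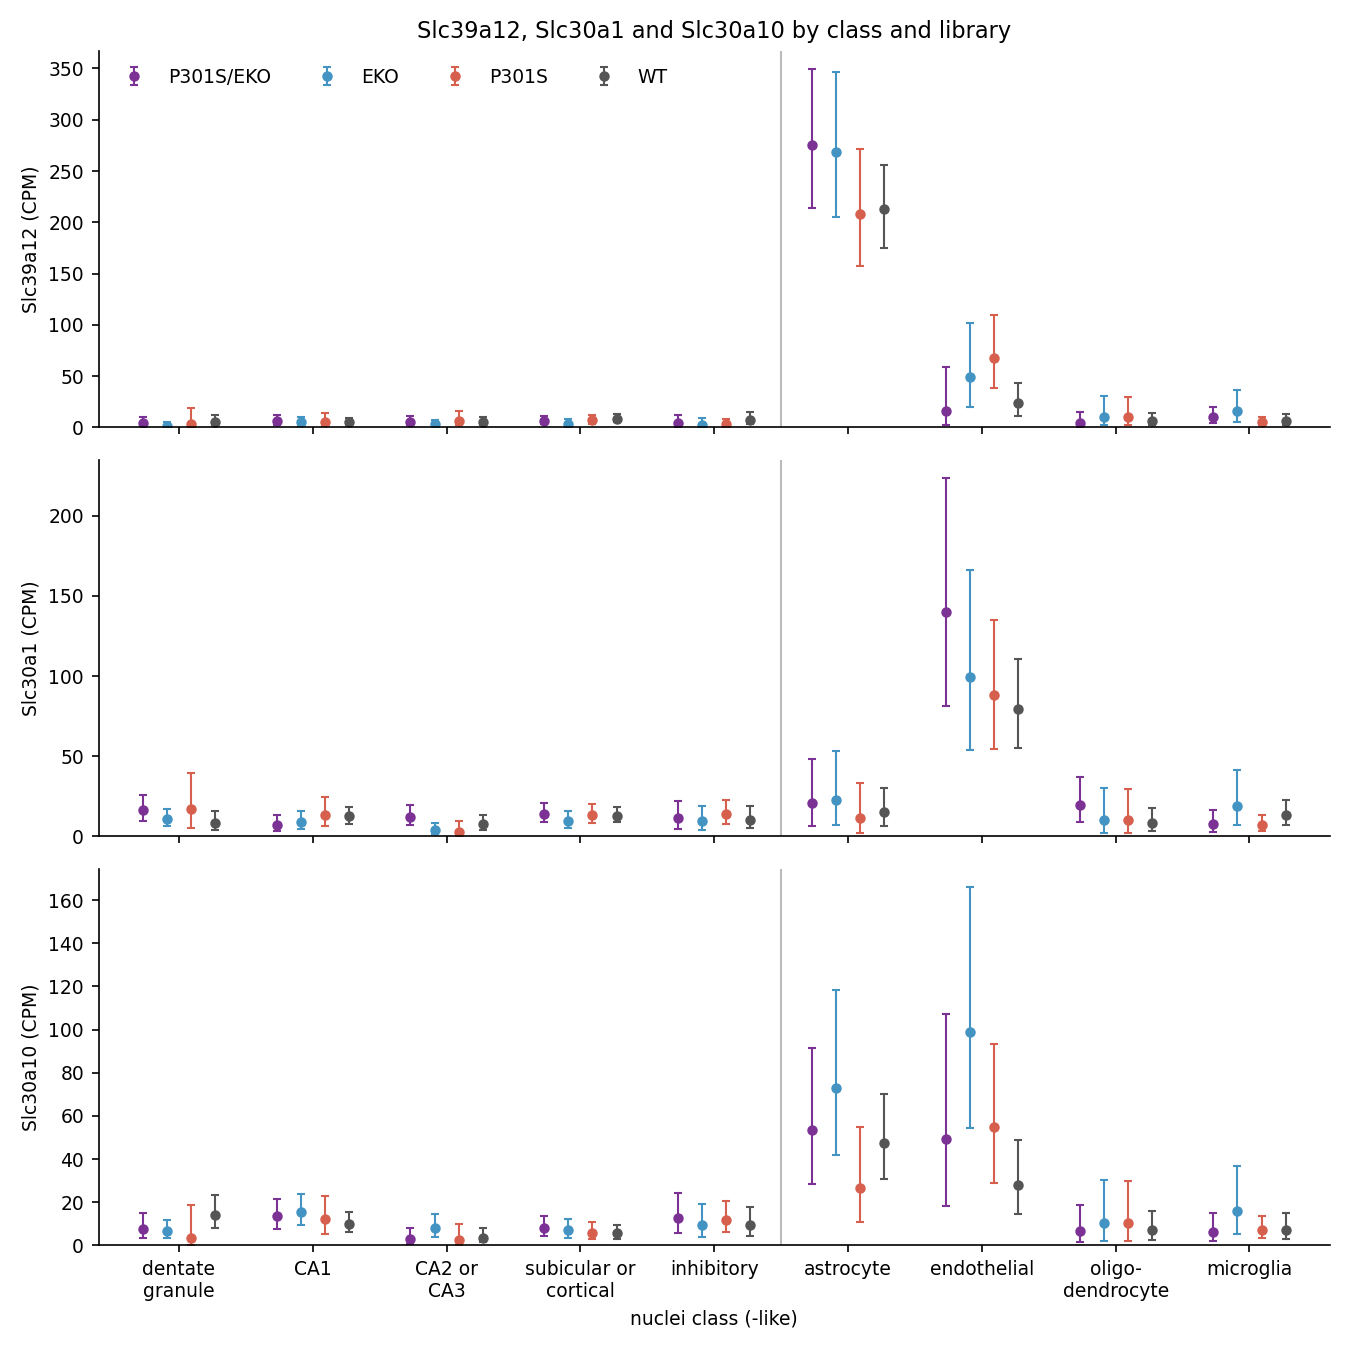
Levels in CPM of Slc39a12, Slc30a1 and Slc30a10 by class and library, with 95% counting intervals. Slc39a12 stands at 209 to 276 CPM in astrocyte-like nuclei and Slc30a1 at 79.4 to 140 CPM in endothelial cell-like nuclei, both above every other class shown in each library.

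The genes with the most similar pattern were sought by the Pearson correlation of log2(CPM + 5) over 47 class and library sums, among 13954 genes. These sums share libraries and depth, so the correlations are descriptions. Among the genes most like Slc30a3 were Slc8a2, a sodium-calcium exchanger (r = 0.831), and Plk5, which is a dentate marker (0.785). Slc39a12 was most like Etnppl (0.937), Gldc, an enzyme of glycine breakdown (0.934), and the glutamate transporter Slc1a2 (0.929). Slc30a10 was most like Selenbp1 (0.854), C1d (0.796) and Snrpg (0.783). The metallothioneins were most like each other, at 0.976 for Mt1 with Mt2, 0.966 for Mt1 with Mt3 and 0.954 for Mt2 with Mt3. Beyond them, Mt1 was most like Dbi (0.945), Mt2 most like Fxyd1 (0.944) and Mt3 most like Prdx6 (0.936).

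Of 20 further zinc transporters and response genes, 10 of 109 measured gene and class pairs were called higher and 0 lower in P301S than in WT, beside 8.01% and 3.3% of all pairs, so the higher share was near that of all genes. The class medians of these genes ran from -0.08 to 1.08 on the log2 scale, beside -0.03 to 0.17 over all genes measured. The importer Slc39a14 (ZIP14), also known to carry iron and manganese, gave 5 of the 10: it was higher in P301S by 3.99-fold in astrocyte-like (1.51 to 11.7), 3.08-fold in dentate granule neuron-like (1.30 to 7.16), 2.35-fold in CA1 neuron-like (1.25 to 4.37), 2.23-fold in subicular or cortical excitatory neuron-like (1.35 to 3.73) and 2.38-fold in inhibitory neuron-like nuclei (1.10 to 5.55). In astrocyte-like nuclei Slc39a1 and Slc30a5 were also higher, by 2.26-fold and 2.42-fold. The other comparisons gave 2 higher and 1 lower call of 104 between P301S/EKO and EKO, 4 higher and 4 lower of 103 between P301S/EKO and P301S, and 8 higher and 1 lower of 110 between EKO and WT. The shares of all pairs called higher and lower were 3.86% and 2.78%, 2.76% and 7.34%, and 3.7% and 3.94% in these 3 comparisons. Of the 8, Slc39a2 gave 5, among them CA1 neuron-like nuclei, where it was 2.25-fold higher in EKO than in WT (1.59 to 3.20). Mtf1, the gene of the zinc sensor, stood at 17.9 CPM in P301S/EKO, 18.1 in EKO, 19.4 in P301S and 17.8 in WT over all nuclei.

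Of 8 genes, the AP-3 adaptor subunits that sort ZnT3 and the vesicular glutamate transporter Slc17a7, 5 of 74 pairs were called higher and 1 lower in P301S than in WT, near the 8.01% and 3.3% of all pairs. The 1 lower call was Slc17a7 in astrocyte-like nuclei. In CA1 neuron-like nuclei Slc17a7 stood at 262 CPM in P301S/EKO, 289 in EKO, 312 in P301S and 254 in WT, with P301S highest where Slc30a3 was lowest. Among 18 iron and copper genes, 14 of 121 pairs were called higher and 2 lower in P301S than in WT, and 18 of 100 higher and 0 lower in P301S/EKO than in EKO. All pairs gave 8.01% higher and 3.3% lower in the P301S and WT comparison, near the count of this list, and 3.86% higher and 2.78% lower in the P301S/EKO and EKO comparison, where the list gave more higher calls. In astrocyte-like nuclei the ferritin light chain gene Ftl1 stood at 469 CPM in P301S/EKO, 205 in EKO, 656 in P301S and 226 in WT. The ratio of P301S to WT was 2.90 (interval 2.28 to 3.70), and that of P301S/EKO to EKO was 2.29 (1.60 to 3.30). For the ferritin heavy chain gene Fth1 these ratios were 1.53 and 1.94.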

How the data were processed

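Single-nucleus RNA was measured in 4 pooled libraries, 1 for each genotype. Each deposited file gives, as whole numbers, the UMI count of a gene in a barcode. Per the submitters' processing notes the authors used Cell Ranger and Seurat with mm10; their versions, and how intron reads and strand were handled, are not stated there. Every depth is a total UMI count of kept nuclei, 7458827 to 11987711 a library.

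Groups came from the labels. Barcodes were dropped if they had under 200 genes or over 5% mitochondrial UMIs. Doublets were scored with Scrublet (expected rate 0.06), and since its own threshold called 0 or 1 a library, the highest scores were removed at 0.8% per 1000 barcodes: 302 in P301S/EKO, 261 in EKO, 74 in P301S and 271 in WT. Nuclei were clustered together, without the zinc genes, by the Leiden method at resolution 1 (2000 variable genes, genes seen in at least 10 nuclei, 10000 counts per nucleus, 30 components, 15 neighbours). A cluster took a name when at least 3 markers of 1 of 18 sets stood at least 1.5-fold above the rest; 2 of 18 clusters had no name and are called by their leading genes. Choroid plexus and fibroblast classes held under 50 nuclei a library and entered no comparison.

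UMIs were summed by class and library and given as CPM, with exact Poisson intervals for levels, exact conditional binomial intervals for ratios and Clopper-Pearson intervals for shares. Log2 ratios carry a prior of 0.5 UMI. A mean ± SD over libraries describes 4 genotypes and not replicates. No p-value is given, since no genotype has a second library. The rule for calls was checked on simulated counts: in the astrocyte-like class between P301S and WT, over 6276 genes, it recovered 62.6% of genes changed 2-fold and 99.0% of those changed 4-fold, and called 2.76% of unchanged genes. These counts were drawn with counting error only, without variation between pools or nuclei. The check therefore does not measure how often the rule calls unchanged genes between real pools. Members and lists were chosen with earlier results of these data known. The rule for names was: all members in classes of at least 50 nuclei; of other lists, up to 4 called genes per list, class and comparison by size; and the 3 genes most like Slc30a3, Slc30a10, Slc39a12 and each metallothionein. Of these, 1 gene is not reported here. Alternatives were tried for scaling, filters, doublets, clustering, weighting, free RNA and mixed nuclei; the one that leaves out the small CA1 cluster was added after seeing the data. Promoters were read from RefSeq's table on GRCm38.p6, gene positions from GENCODE vM21. The tools were scanpy 1.11.5 and igraph 0.11.9 for clusters, scipy 1.17.1 for intervals, and scikit-learn 1.9.0, matplotlib 3.10.9, pandas 2.3.3 and numpy 2.4.6 under Python 3.11.15.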

Additional observations from a re-analysis of the deposited data

Results flagged for a closer look

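Barcodes above 5% mitochondrial UMIs were left out of every comparison, and the metallothioneins were higher there too in both libraries with the tau transgene. The left-out barcodes numbered 1191 in P301S/EKO, 521 in EKO, 222 in P301S and 640 in WT. Mt1 stood at 3127 CPM in P301S/EKO and 1845 in EKO (1.70-fold), and at 4866 CPM in P301S and 1836 in WT (2.65-fold). Mt2 stood at 1404 CPM in P301S/EKO and 644 in EKO (2.18-fold), and at 2618 CPM in P301S and 708 in WT (3.70-fold). Mt3 stood at 1991 CPM in P301S/EKO and 1440 in EKO (1.38-fold), and at 2317 CPM in P301S and 1367 in WT (1.70-fold). The astrocyte transcript Slc39a12 stood at 73.3 CPM in P301S/EKO and 46.8 in EKO, and at 99.6 CPM in P301S and 55.3 in WT in these barcodes, higher in the same libraries, and its part was not tested. Each metallothionein value is a signal in data that the comparisons did not use, above the level of the partner library without the transgene. Each rests on 1 pool a genotype.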

How the results depend on the processing

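Over 276 repeats of the results under other settings, 218 stayed within counting error (or, for counts of calls, within 1.5 times), 54 moved more and 4 values past counting error changed sign. No paired analysis was possible because each genotype is 1 pooled library with no replicate number. No replicate could be left out for the same reason. The 4 changes of sign were in EKO over WT in astrocyte-like nuclei: log2 -0.22 for Mt1 and -0.28 for Mt2 with free RNA subtracted, and -0.02 and -0.07 with mixed nuclei left out, against 0.27 and 0.25 as reported; the cause was not tested. In astrocyte-like nuclei, with at least 500 genes per nucleus P301S/EKO over P301S was -0.32 for Mt1 and -0.34 for Mt2. With at least 1100 UMIs it was -0.27 for Mt1, -0.31 for Mt2 and -0.07 for Mt3, P301S/EKO over EKO was 1.22, 1.33 and 1.34, and P301S over WT was 1.86 for Mt1 and 1.9 for Mt2. With equal weight per nucleus P301S/EKO over P301S was -0.72 and -0.75, P301S/EKO over EKO 0.7 and 0.68, P301S over WT 1.5, 1.52 and 1.05 for Mt1, Mt2 and Mt3, and EKO over WT 0.08 for Mt1. With free RNA subtracted P301S over WT was 1.14, 1.12 and 0.89, and EKO over WT -0.24 for Mt3; with mixed nuclei left out P301S over WT was 1.54 for Mt1 and 1.54 for Mt2. In astrocyte-like nuclei P301S/EKO over EKO and P301S over WT stayed positive for the 3 metallothioneins in every setting run. Slc30a3 in CA1 nuclei was -1.62 in P301S over WT with each library clustered alone, against -0.95. Its uncalled P301S/EKO over EKO value there, 0.06, was -0.04 with at least 500 genes, -0.19 with each library alone and -0.01 with at least 1100 UMIs.

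Over the named classes the further zinc genes gave 4 higher and 4 lower calls in P301S/EKO over P301S, 1 and 1 in P301S/EKO over EKO, 7 and 0 in EKO over WT and 10 and 0 in P301S over WT. In P301S/EKO over P301S the higher calls came to 2 with at least 500 genes, doublets kept, zinc genes clustered or free RNA subtracted, 1 at resolution 2 and 0 with at least 1100 UMIs; the lower calls came to 2 with median-of-ratios scaling, free RNA subtracted or mixed nuclei left out. In P301S/EKO over EKO the higher calls came to 2 and the lower to 0 or 2 in several settings. In EKO over WT the calls came to 3 higher and 1 lower with at least 1100 UMIs, and to 1 lower with free RNA subtracted. In P301S over WT the lower calls came to 1, 2 or 3, and the higher to 6 with mixed nuclei left out. Median-of-ratios scaling moved the median of all genes by -0.17 to 0.19 on the log2 scale across classes. Most transporter levels rest on under 100 UMIs, so small differences were not detectable at this depth.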
